A study of Mus musculus with 66 samples.

Results

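The Tdpoz and Obox genes are early-embryo genes that lie in tandem on mouse chromosomes 3 and 7, and this is a description of H3K9me3 and H3K36me3 over 10 of them in the prefrontal cortex. The members were Tdpoz1, Tdpoz2, Tdpoz3, Tdpoz4 and Tdpoz5, and Obox1, Obox2, Obox3, Obox5 and Obox6, out of 21755 protein-coding genes on the autosomes and X. The unit was a gene window, the annotated gene body with 20 kb on either side, and the measurements were the ChIP reads and input reads of the islands listed in each window. The genes were chosen by their listed islands of both marks, so the levels below are descriptions and carry no test.

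Chromatin immunoprecipitation sequencing (ChIP-seq) was performed on prefrontal cortex of the inbred strain DBA/2J, from mice in adolescence. Ethanol mice received 4 g/kg by gavage as a 25% w/v solution, with intermittent doses from postnatal day (PND) 29 to PND 42, and control mice received water. The cortex was dissected 24 h later, and each sample pooled the cortex of 3 mice of one sex. There were 6 ethanol and 5 water pools of each sex, 22 pools in all, and each gave an H3K9me3, an H3K36me3 and an input library, 66 samples. In this bulk tissue all cell types were mixed, so more cells with a mark and more of the mark per cell cannot be told apart.

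Tdpoz proteins carry a TRAF domain and a POZ (BTB) domain, as does Spop, the substrate adaptor of a cullin ubiquitin ligase that is made in most tissues. The Obox (oocyte-specific homeobox) genes encode homeodomain transcription factors related to Crx and take part in the activation of the embryonic genome. Both families are known for expression in oocytes and cleavage-stage embryos, and RNA was not analysed here. H3K9me3 is a mark of heterochromatin that covers repeats and silenced tandem gene families. H3K36me3 is laid down along gene bodies by a methyltransferase that travels with elongating RNA polymerase, and the same mark also lies with H3K9me3 over some zinc finger gene clusters.

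The Tdpoz cluster, taken as the whole span from its members' first window to the last, ran over chr3:93631542-93981314 (GRCm38), 349.8 kb, of which 173.3 kb lay between the windows and outside all of them. Its genes were small, and 4 of the 5 bodies were 1.02 to 1.15 kb long. Besides the 5 members it held 3 other protein-coding genes (Gm37596, Gm5773 and Gm9117) and 12 pseudogenes. The Obox cluster, taken the same way, ran over chr7:15368721-15859678, 491 kb, with 103.7 kb outside the windows, and held 17 pseudogenes beside its 5 members and no other protein-coding gene. The GENCODE models of Obox1 (167.9 kb) and Obox3 (160.1 kb) reach across other Obox genes, while their RefSeq models are 9.59 and 14.47 kb, so the windows of Obox1, Obox2 and Obox3 share islands and are not separate measurements. The windows of Tdpoz1 and Tdpoz2 overlap as well, and so do those of Tdpoz3 and Tdpoz4.

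Promoters, taken as the 250 bases before the annotated start, were matched in RefSeq (GRCm38.p6) for 7 of the 10 members. Tdpoz2, Tdpoz3 and Obox6 were not among them. Whether transcription begins at an annotated start was not tested. The Obox promoters are shown because they hold stretches of one another, and capitals mark bases in exact runs of at least 20 bases shared with another member's promoter. Obox1 (chr7:15547007-15547256, plus strand) and Obox2 (chr7:15388601-15388850, plus strand) shared a run of 153 bases. Obox1 and Obox5 (chr7:15750120-15750369, plus strand) shared 82 bases in their longest run and were 87.8% identical when aligned. Obox3 (chr7:15639778-15640027, minus strand) was 67.4% identical to Obox5, with 35 bases in its longest run.
Obox1: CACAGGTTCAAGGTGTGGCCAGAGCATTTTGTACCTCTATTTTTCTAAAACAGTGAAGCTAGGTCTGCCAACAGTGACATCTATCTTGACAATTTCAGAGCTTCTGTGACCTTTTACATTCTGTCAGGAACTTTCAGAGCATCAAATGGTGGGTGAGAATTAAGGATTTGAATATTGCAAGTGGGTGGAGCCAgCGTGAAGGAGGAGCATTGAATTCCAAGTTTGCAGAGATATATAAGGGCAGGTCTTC
Obox2: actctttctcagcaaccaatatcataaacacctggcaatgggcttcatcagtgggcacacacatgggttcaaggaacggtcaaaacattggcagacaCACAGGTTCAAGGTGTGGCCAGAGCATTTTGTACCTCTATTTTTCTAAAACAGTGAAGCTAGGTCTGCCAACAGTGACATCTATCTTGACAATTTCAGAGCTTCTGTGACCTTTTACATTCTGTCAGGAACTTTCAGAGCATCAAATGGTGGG
Obox5: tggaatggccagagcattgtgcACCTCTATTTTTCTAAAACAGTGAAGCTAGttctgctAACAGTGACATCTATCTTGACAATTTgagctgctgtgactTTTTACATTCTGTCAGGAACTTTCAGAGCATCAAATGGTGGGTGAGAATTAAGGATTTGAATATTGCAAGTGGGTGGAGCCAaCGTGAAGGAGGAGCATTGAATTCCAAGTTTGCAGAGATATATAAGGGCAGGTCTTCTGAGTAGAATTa
Obox3: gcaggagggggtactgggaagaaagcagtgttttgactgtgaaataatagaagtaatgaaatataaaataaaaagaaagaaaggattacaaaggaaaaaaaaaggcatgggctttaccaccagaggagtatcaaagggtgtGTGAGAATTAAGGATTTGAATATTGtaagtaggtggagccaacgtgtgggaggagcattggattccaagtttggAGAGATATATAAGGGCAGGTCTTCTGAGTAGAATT

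The motif TATATAA was found on the gene's strand in 4 of the 7 promoters, at 19 bases before the start in Obox1, 31 in Obox5, 30 in Obox3 and 60 in Tdpoz1. Of 32851 RefSeq promoters of this length, 2.05% held these letters on the gene's strand and 3.04% on either strand. Each Obox promoter held 1 CpG, against a median of 6 over all promoters. The promoters of Tdpoz4 (chr3:93796148-93796397, plus strand) and Tdpoz5 (chr3:93961315-93961564, minus strand) are shown because islands differed between them: H3K9me3 islands lay over the first in 22 of 22 libraries and over the second in 7. They were 66.5% identical, with no shared run of 20 bases, and held 0 and 3 CpG.
Tdpoz4: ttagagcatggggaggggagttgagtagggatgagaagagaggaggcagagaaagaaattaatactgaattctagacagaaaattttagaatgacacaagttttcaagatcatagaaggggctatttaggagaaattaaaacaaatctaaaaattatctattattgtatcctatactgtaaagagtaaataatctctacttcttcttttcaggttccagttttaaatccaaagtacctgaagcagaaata
Tdpoz5: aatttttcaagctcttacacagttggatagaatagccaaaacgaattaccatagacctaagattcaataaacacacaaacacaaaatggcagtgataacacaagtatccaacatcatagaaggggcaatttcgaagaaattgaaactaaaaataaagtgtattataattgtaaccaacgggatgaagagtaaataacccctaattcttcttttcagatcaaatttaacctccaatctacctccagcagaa

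A library held 41364 to 72481 H3K9me3 islands with 5.73 to 14.2 M ChIP reads, and 19618 to 61911 H3K36me3 islands with 1.70 to 4.80 M. Enrichment over input is given as ChIP reads over input reads of the same islands, divided by the constant that scales the input of that library; the same input library served H3K9me3 and H3K36me3 of a pool. Over all islands it was 1.01 to 1.57 for H3K9me3 and 0.893 to 1.504 for H3K36me3. The lowest H3K9me3 value was in female water replicate 2, and the smallest H3K36me3 library was male ethanol replicate 4. As a check of the tissue, 11 of 25 genes active in cortical cells had an H3K36me3 body island in at least 11 libraries. Over all genes 5542 of 21755 did. For H3K9me3 these were 7 of 25 and 3397 of 21755, so the check did not set H3K36me3 apart and says little on the tissue. The median body of the 25 genes was 0.612% covered by H3K36me3 islands, against 0.504% over all genes. With so little of the median body covered, an H3K36me3 island is not read as transcription below. Of the length of the H3K36me3 regions over the autosomes and X, 87.3% lay inside H3K9me3 regions. Whether the H3K36me3 lists hold a mark apart from H3K9me3 cannot be told from these lists, and this limit applies to every H3K36me3 value given here.

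On average H3K9me3 islands covered most of both clusters in each group, with the lowest group mean at 50.4%, for Tdpoz in female water pools. Some pools were lower, and female water replicate 2 was lowest, with 42.5% of Tdpoz and 43.4% of Obox. The Tdpoz cluster was covered over 54.5% ± 4.82 of its length (SD, n = 22) and the Obox cluster over 64.9% ± 7.10. Within the members' windows alone it was 62.0% ± 5.13 and 68.5% ± 6.97. The islands held 7842 to 19728 ChIP reads in Tdpoz and 8079 to 25462 in Obox. Enrichment over input was 1.92 ± 0.158 in Tdpoz and 2.09 ± 0.179 in Obox, and in each of the 22 libraries both clusters were above the value over all islands. Obox was above Tdpoz in 22 of 22 libraries. In the members' windows alone, without the DNA between them, enrichment was 1.95 ± 0.163 in Tdpoz and 2.09 ± 0.184 in Obox.

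In the Tdpoz cluster, H3K9me3 enrichment in the male water pools was 1.94, 1.89, 2.01, 1.86 and 1.90. In the male ethanol pools the lowest was 1.82, the median 1.96 and the highest 2.23. In the female water pools it was 1.78, 1.38, 2.06, 1.86 and 1.96, and in the female ethanol pools the lowest was 1.85, the median 1.93 and the highest 2.07. Female water replicate 2, which was also lowest over all its islands, stood below every other pool, and ethanol and water pools overlapped in both sexes. The log2 difference of the group means, ethanol minus water, was 0.05 (SE 0.05) in males and 0.12 (SE 0.10) in females, or 0.030 without that pool. Without 1 male pool the male difference ran from 0.013 (ethanol replicate 4) to 0.071 (ethanol replicate 3). As a share of all island reads of the library (RPM, reads per M island reads), the difference was 0.0083 (SE 0.07) in males and -0.05 (SE 0.10) in females, where the sign was the opposite.

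In the Obox cluster, H3K9me3 enrichment in the male water pools was 2.14, 1.97, 2.16, 1.89 and 2.01. In the male ethanol pools the lowest was 2.02, the median 2.15 and the highest 2.38. In the female water pools it was 1.91, 1.502, 2.26, 2.12 and 2.18, and in the female ethanol pools the lowest was 2.02, the median 2.11 and the highest 2.26. The groups overlapped again, with log2 differences of 0.09 (SE 0.05) in males and 0.11 (SE 0.11) in females. Female water replicate 2 was lowest here as well, and the female difference was 0.016 without it. In RPM the differences were 0.00065 (SE 0.04) in males and 0.02 (SE 0.09) in females.

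**Figure D1:**
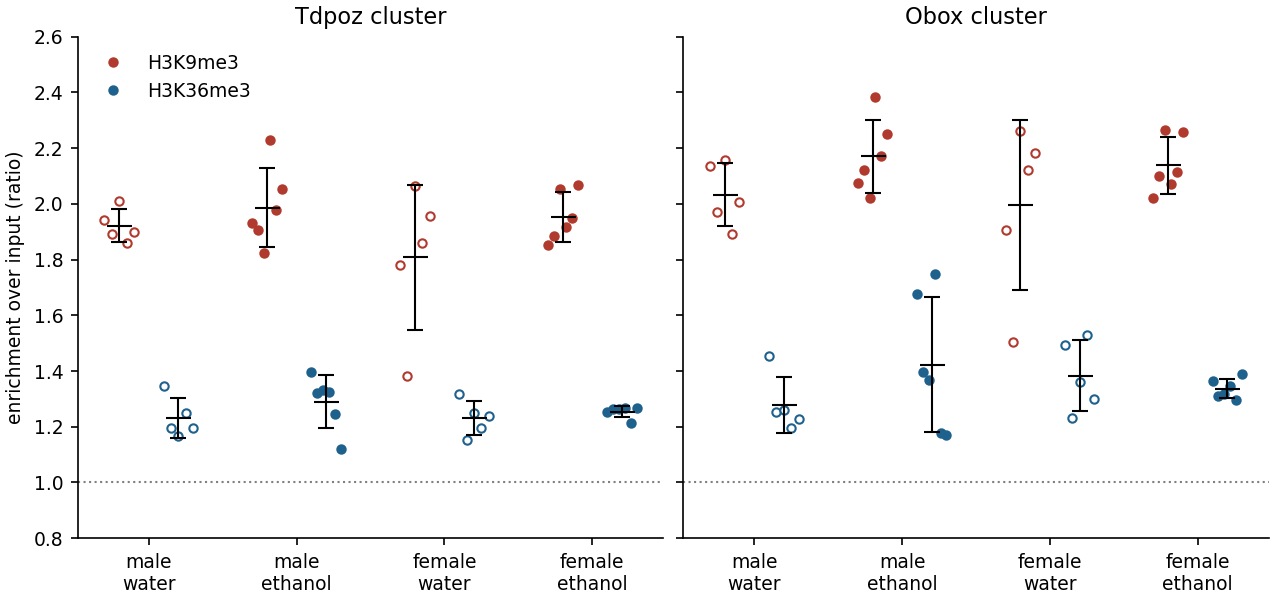
Enrichment over input (ratio, ChIP reads over scaled input reads) of H3K9me3 (red) and H3K36me3 (blue) in the Tdpoz and Obox clusters, with 1 point per pool, open for water and filled for ethanol, bars at the mean and SD, and a dotted line at 1. H3K9me3 lies above H3K36me3 in each pool, and the ethanol and water points overlap in both sexes.

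Within the Tdpoz cluster the cover was uneven. Tdpoz3 and Tdpoz4 lay in a single H3K9me3 region of 59.2 kb, chr3:93774201-93833400, where a region is a stretch covered in at least 11 of the 22 libraries. H3K9me3 islands covered 88.2% ± 6.20 of the Tdpoz3 window and 96.1% ± 2.58 of the Tdpoz4 window, the 99.9th and 99.98th percentiles of all 21755 windows. The window of Tdpoz2 was covered over 55.8% ± 7.85, that of Tdpoz1 over 43.4% ± 5.38 and that of Tdpoz5 over 34.6% ± 7.30. The median over all windows was 0.196%.

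The bodies of the Tdpoz genes differed more than their windows. Islands of H3K9me3 lay over the bodies of Tdpoz2, Tdpoz3 and Tdpoz4 in 22 of 22 libraries, over Tdpoz1 in 3 and over Tdpoz5 in 2. The median body cover was 100% for Tdpoz3 and Tdpoz4 and 30.1% for Tdpoz2. The Tdpoz1 body held 61 reads in male ethanol replicate 6, 45 in female ethanol replicate 1 and 42 in female ethanol replicate 3, and had no island elsewhere. The Tdpoz5 body held 11 reads in male water replicate 2 and 16 in male ethanol replicate 4. A body without an island says only that no island was listed there. Only 7.62% of the 150-base words starting in the Tdpoz5 body occur once in the genome, against 90.4% for Tdpoz1 and 94.3% for Tdpoz4, and the study kept only reads that mapped to a single place.

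The Obox members were covered more evenly. H3K9me3 islands covered 75.8% ± 6.40 of the Obox1 window, 74.2% ± 7.42 of Obox2, 70.7% ± 7.01 of Obox3, 65.2% ± 10.2 of Obox5 and 40.2% ± 10.6 of Obox6. Obox1, Obox2 and Obox5 are known as maternal transcripts of the oocyte and Obox3 as a transcript of the cleavage-stage embryo, and Obox6 lies at the far end of the cluster. The bodies of all 5 had an H3K9me3 island in 22 of 22 libraries. With the shorter RefSeq models, 76.1% of Obox1 and 81.6% of Obox3 were covered, so the long GENCODE models did not make their cover. The 250 bases before the start held an H3K9me3 island in 22 libraries for Obox5, 18 each for Obox1 and Obox3, and 16 for Obox2, each at the RefSeq start whose promoter is printed, and in 20 for Obox6, at its GENCODE start.

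**Figure D2:**
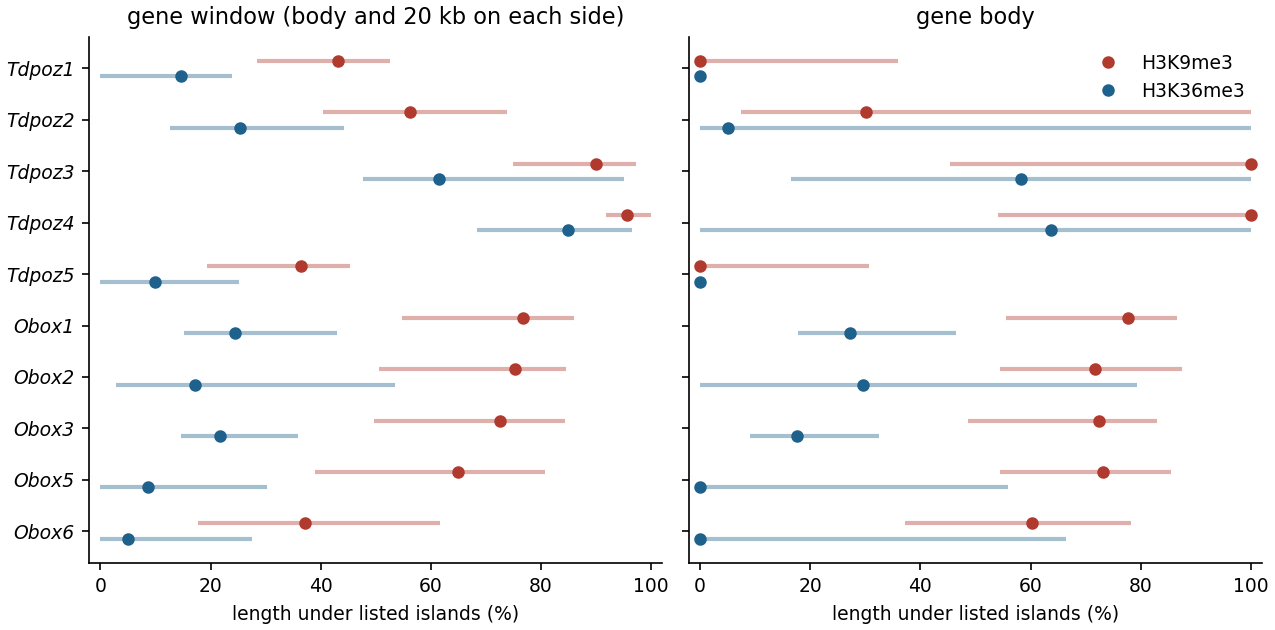
Length under listed islands (%) in the gene window (left) and the gene body (right) of each member, with the median of 22 libraries as a point and the lowest and highest library as a line, H3K9me3 in red and H3K36me3 in blue. Tdpoz3 and Tdpoz4 have the highest cover of both marks in their windows, and the bodies of Tdpoz1 and Tdpoz5 have medians of 0.

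Enrichment over input set the members apart less than cover did. Over the windows the mean H3K9me3 enrichment ran from 1.81 in Tdpoz2 to 2.23 in Obox2, the 87.8th and 99.2nd percentiles of 5214 windows with an island in all 22 libraries, whose median was 1.47. In order from the highest, the means were 2.23 for Obox2, 2.16 for Obox1, 2.06 for Obox3, 2.02 for Obox5 and 2.01 for Tdpoz3. They went on with 1.96 for Tdpoz1, 1.96 for Tdpoz4, 1.92 for Tdpoz5, 1.87 for Obox6 and 1.81 for Tdpoz2. The SD over libraries was 0.180 to 0.267, and no pair of neighbours in this order differed by as much. All members were measured in the same libraries, so this SD holds library effects that they share. It does not measure the spread of the differences between members, which were not tested.

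H3K36me3 islands lay over both clusters too, at lower enrichment. They covered 31.8% ± 4.06 of Tdpoz and 17.7% ± 5.11 of Obox (SD, n = 22), or 37.8% ± 5.54 and 20.8% ± 5.75 of the members' windows alone, with 1637 to 5771 and 1212 to 4664 ChIP reads in a library. Enrichment over input was 1.25 ± 0.0675 in Tdpoz and 1.36 ± 0.150 in Obox, and in 22 of 22 pools both clusters had less H3K36me3 than H3K9me3 enrichment. Tdpoz was above the value over all islands in 19 libraries and Obox in 22. Of a median of 25.5 H3K36me3 islands a library in Tdpoz, a median of 12 had an island false discovery rate (FDR) of at most 0.01, against 41 of 42.5 for H3K9me3.

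In the Tdpoz cluster, mean H3K36me3 enrichment was 1.23 ± 0.0707 in male water, 1.29 ± 0.0955 in male ethanol, 1.23 ± 0.0615 in female water and 1.25 ± 0.0208 in female ethanol pools (n = 5 water, 6 ethanol). In the Obox cluster it was 1.28 ± 0.101, 1.42 ± 0.243, 1.38 ± 0.127 and 1.34 ± 0.0356 in the same order. Groups overlapped in both clusters and sexes. The log2 differences, ethanol minus water, were 0.07 (SE 0.06) for Tdpoz and 0.14 (SE 0.11) for Obox in males, and 0.03 (SE 0.03) and -0.04 (SE 0.06) in females. Leaving out 1 male pool gave 0.042 (ethanol replicate 1) to 0.11 (ethanol replicate 6) for Tdpoz and 0.079 (ethanol replicate 4) to 0.19 (ethanol replicate 6) for Obox. Leaving out 1 female pool gave 0.0049 (water replicate 2) to 0.053 (water replicate 1) for Tdpoz and -0.085 (water replicate 2) to -0.0067 (water replicate 4) for Obox. The Obox difference in males was 0.014 with island FDR of 0.01 and -0.023 with 1e-05, and those in females also changed sign with island FDR of 0.01 (-0.021 for Tdpoz and 0.025 for Obox). In the members' windows alone the female Tdpoz difference was 0.056. In RPM the differences were 0.03 (SE 0.11) for Tdpoz and 0.42 (SE 0.21) for Obox in males, and 0.18 (SE 0.10) and 0.08 (SE 0.13) in females, so that Obox in females had the opposite sign to its enrichment. The 3 highest male values in Obox were 1.75 in ethanol replicate 4, 1.68 in ethanol replicate 1 and 1.45 in water replicate 1, and these 3 libraries also had the fewest H3K36me3 reads of the males, 1.70, 2.41 and 2.57 M. The part of depth in these values was not tested.

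H3K36me3 followed the same uneven order over the Tdpoz members. Against a median of 2.05% over all windows, it covered 83.9% of the Tdpoz4 window and 62.8% of Tdpoz3. It covered 24.9% of Tdpoz2, 14.1% of Tdpoz1 and 10.2% of Tdpoz5. Its islands lay over the body of Tdpoz3 in 22 libraries, Tdpoz4 in 19 and Tdpoz2 in 12, and over the bodies of Tdpoz1 and Tdpoz5 in 0. Among the Obox members it covered 26.1% of the Obox1 window, 21.8% of Obox3, 18.9% of Obox2, 10.4% of Obox5 and 6.96% of Obox6. Bodies had an H3K36me3 island in 22 libraries for Obox1 and Obox3, 19 for Obox2, 9 for Obox6 and 5 for Obox5. Over the shorter RefSeq body, Obox1 had an H3K36me3 island in 19 libraries, with 34.1% covered on average, and over that of Obox3 the lowest library had 16.6% covered. The enrichment of H3K36me3 over the 6 windows with an island in all 22 libraries ranged from 1.23 to 1.39, the 41.8th to 83.5th percentiles of 2785 such windows; the other 4 windows were not ranked.

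Islands listed for both marks lay on the same DNA. Of the H3K36me3 regions, 99.6% of the length in Tdpoz and 100% in Obox was inside an H3K9me3 region, against 87.3% over the autosomes and X. The reverse share was 56.4% in Tdpoz and 20.7% in Obox, against 40.9% over the same chromosomes. This overlap is of pools and not of cells, and it was not tested. There were 40 H3K9me3 and 27 H3K36me3 regions in Tdpoz, and 67 and 20 in Obox. Bases under an H3K9me3 island in all 22 libraries came to 100.8 kb in Tdpoz and 100.4 kb in Obox, and under H3K36me3 to 39.4 and 10 kb.

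**Figure D3:**
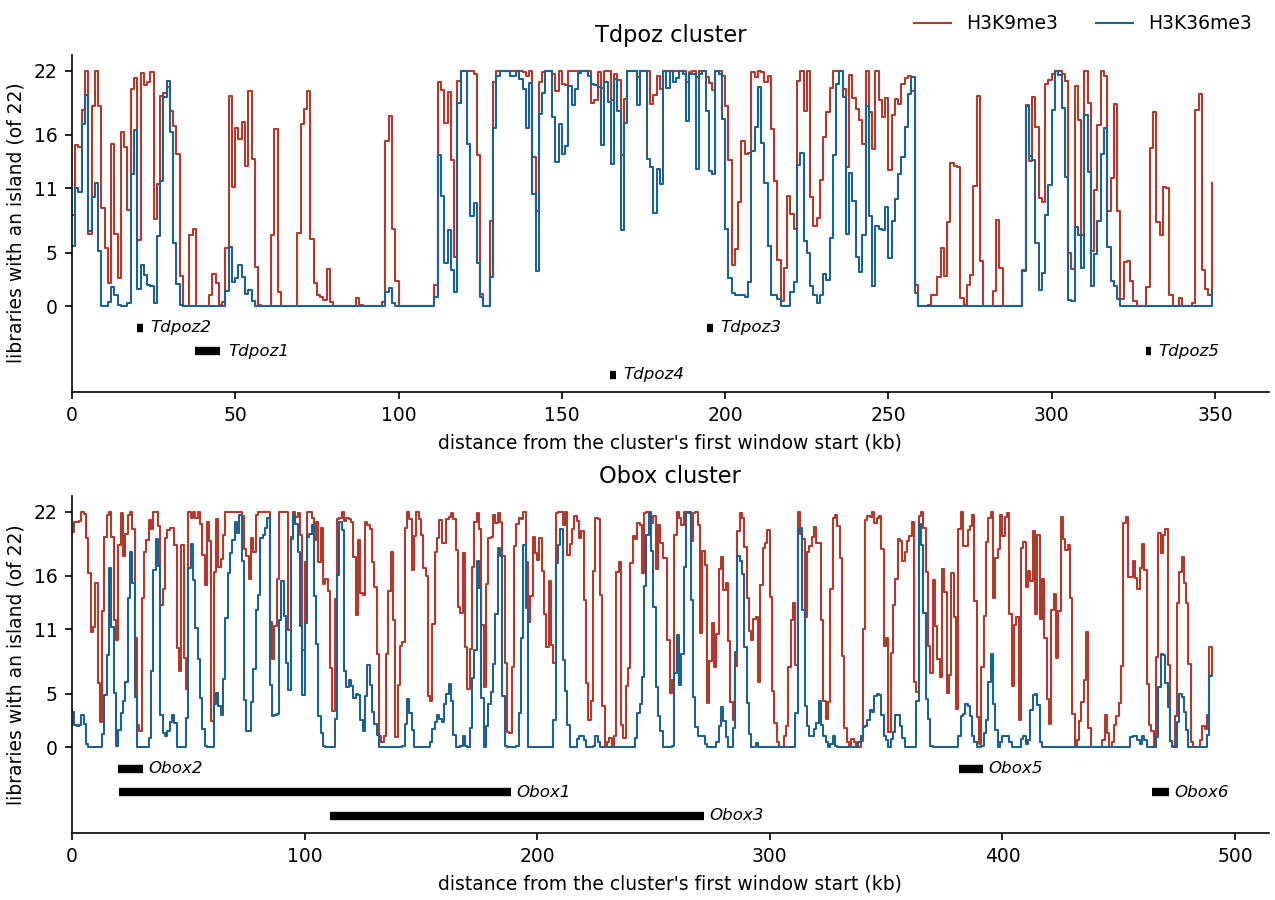
Number of libraries (of 22) with a listed island along the Tdpoz (top) and Obox (bottom) clusters, by distance in kb from the start of the cluster's first window, H3K9me3 in red, H3K36me3 in blue and gene bodies as black bars. In Tdpoz both marks reach 22 libraries around Tdpoz4 and Tdpoz3, and in Obox H3K9me3 recurs along the whole cluster while H3K36me3 forms narrow peaks.

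Repeated sequence differed between the clusters and along them. Of the 150-base words of the clusters, 70.1% in Tdpoz and 64.6% in Obox occur once in the genome, against 95.0% of 255952 words sampled over the autosomes and X. In Tdpoz the share was higher inside the H3K36me3 regions (84.7%) than over the whole cluster, and in Obox it was lower (33.3%). Repeat-masked bases made up 84.7% of the Obox H3K36me3 regions, 71.2% of the Obox H3K9me3 regions and 64.9% of the whole cluster. Among the Obox bodies the unique share was 98.9% for Obox5, 87.3% for Obox6, 55.9% for Obox3, 43.9% for Obox2 and 41.6% for Obox1. Reads that map to several places were discarded by the study, so reads of near-identical copies were lost or uncertain in Tdpoz5, Obox1, Obox2 and Obox3. The part of mappability in the island patterns was not tested.

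Other genes of these families and of the early embryo were looked at by list. The 5 other genes annotated in the same families (Gm10697, Gm4858, Gm9125, Obox7 and Obox8) each had an H3K9me3 island over the body in at least 11 libraries, and their median window was 47.0% covered. Of 70 other oocyte and early-embryo genes, 29 had such an island and the median window was 7.18% covered; over all genes these were 3397 of 21755 and 0.196%. Among the somatic relatives, the Spopl body had an H3K9me3 island in 22 libraries, Crx in 5, and Spop, Otx1 and Otx2 in 0. Spopl, a paralog of Spop, was also the one somatic relative with H3K36me3 islands over its body in 22 libraries.

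The windows whose H3K9me3 reads per M island reads (RPM) varied most like the Tdpoz cluster over the 22 libraries were those of Vmn2r111 (Pearson r = 0.97), Zfp988 (0.97) and Gm10324 (0.96). For Obox they were Cyp3a41a (0.94), Vmn2r15 (0.93) and Sult2a8 (0.92). For H3K36me3 they were Gm5592 (0.91), Zfp981 (0.89) and Speer4e (0.87) with Tdpoz, and Naaladl2 (0.88), Zfp980 (0.84) and Gm5849 (0.82) with Obox. The median r was 0.17 and 0.21 over 5200 H3K9me3 windows, and 0.14 and 0.16 over 2777 H3K36me3 windows. The clusters varied with each other at r = 0.86 for H3K9me3 and 0.57 for H3K36me3. All values share the libraries and their depth, and these correlations are given as a description.

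Whether binge ethanol changed either mark was tested on the reads of all windows with edgeR's quasi-likelihood test, with Benjamini-Hochberg adjustment, at the study's unadjusted threshold of 0.05. In males, 0 of 10 member windows were at the threshold for H3K9me3, and 2.3% of all 8319 windows were. In females, 0 of 10 were, against 3.06% of 8485. With both sexes together, 0 of 10 were, against 2.87%, and for the difference of the effect between the sexes 0 of 10, against 5.75%. DESeq2 put 0 members at the threshold in each of these 4 comparisons too. Over all windows it put 288 of 8319, 379 of 8485, 415 of 9162 and 415 of 9844 there. After adjustment 0 members passed with either tool. Over all windows 0, 0, 0 and 1 passed with edgeR, and 3, 26, 0 and 75 with DESeq2.

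The H3K9me3 fold changes of the members ran from -0.08 to 0.16 (log2, ethanol over water) in males and from -0.08 to 0.12 in females, with medians of 0.02 and 0.04, against 0.01 and 0.04 over all windows. The member of smallest p in males was Obox6. Its window held 97.9, 97.8, 81.3, 75.4 and 77.0 RPM in the male water pools, and from 76.2 to 114.1 with a median of 90.7 in the male ethanol pools, so the groups overlapped. The fitted log2 fold change was 0.16 (SE 0.12, edgeR adjusted p = 1.00). With 1 pool left out this fold change ran from 0.099 to 0.22, and over the gene body it was -0.019. In females the member of smallest p was Obox5, with 122.3, 119.8, 163.4, 141.5 and 130.4 RPM in water pools. Its ethanol pools ran from 131.7 to 166.5 with a median of 141.6. Its log2 fold change was 0.12 (SE 0.10, edgeR adjusted p = 1.00). Without female water replicate 3, the highest water pool, it was 0.20 and at the unadjusted threshold, and so was the sex difference of Obox5. With any other pool left out the female fold change was 0.075 to 0.15, and under other settings 0.0080 to 0.26. None of these was at the threshold.

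H3K36me3 showed a few members at the unadjusted threshold and none after adjustment. With edgeR no window of any gene passed after adjustment in any of the comparisons. In males 2 of 10 member windows were at it, Obox1 and Obox3, both higher in ethanol pools, and 2.41% of all 12525 windows were. These 2 windows share islands. In females it was 1 of 10, Tdpoz3, against 0.572% of 13803 windows. With both sexes together it was 2 of 10, Obox1 and Tdpoz3, against 2.24%, and for the sex difference 0 of 10, against 6.69%. The median log2 fold change of all H3K36me3 windows was itself -0.46 in males, -0.01 in females and -0.24 with both sexes, so that in males most windows were lower in ethanol pools after scaling. Without TMM factors the male median was -0.19, and the fold changes of Obox1 and Obox3 kept their sign at 0.78 and 0.66. DESeq2 gave 2, 1, 2 and 0 members at the unadjusted threshold in the same 4 comparisons and 0 after adjustment. Over all windows it gave 445 of 12525, 156 of 13803, 825 of 15183 and 608 of 16716, and 29, 5, 15 and 262 after adjustment.

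The Obox1 window held 293.4, 422.5, 421.6, 411.9 and 485.2 H3K36me3 RPM in the male water pools, and from 352.8 to 828.4 with a median of 547.5 in the male ethanol pools. Ethanol replicate 1 was highest and water replicate 1 lowest, and the groups overlapped. The log2 fold change was 0.51 (SE 0.19, edgeR adjusted p = 0.984). Without male ethanol replicate 1 it was 0.38 and no longer at the threshold.

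More reads went with more length under islands at Obox1. Islands covered 31.4, 46.1, 47.7, 41.3 and 58.9 kb of the window in male water pools and 41.9 to 89.3 kb in male ethanol pools, while reads per kb of island were 24.0 to 37.0 and 16.7 to 36.8. Enrichment over input was 1.20 to 1.49 in water and 1.16 to 1.74 in ethanol pools. Tested as ChIP reads over input reads of the same islands with limma, the log2 fold change at Obox1 was 0.08, or 0.07 centred. The replicate block was a fit with the replicate number as a factor, on replicates 1 to 5, and so without ethanol replicate 6. On islands with an FDR of at most 0.01 edgeR gave 0.85, on those of at most 1e-05 2.12, and with the replicate block 0.52. None of these was at the threshold. In females the log2 fold change was 0.18 (SE 0.17, edgeR adjusted p = 1.00), and the difference between the sexes was -0.37, not at the threshold.

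**Figure D4:**
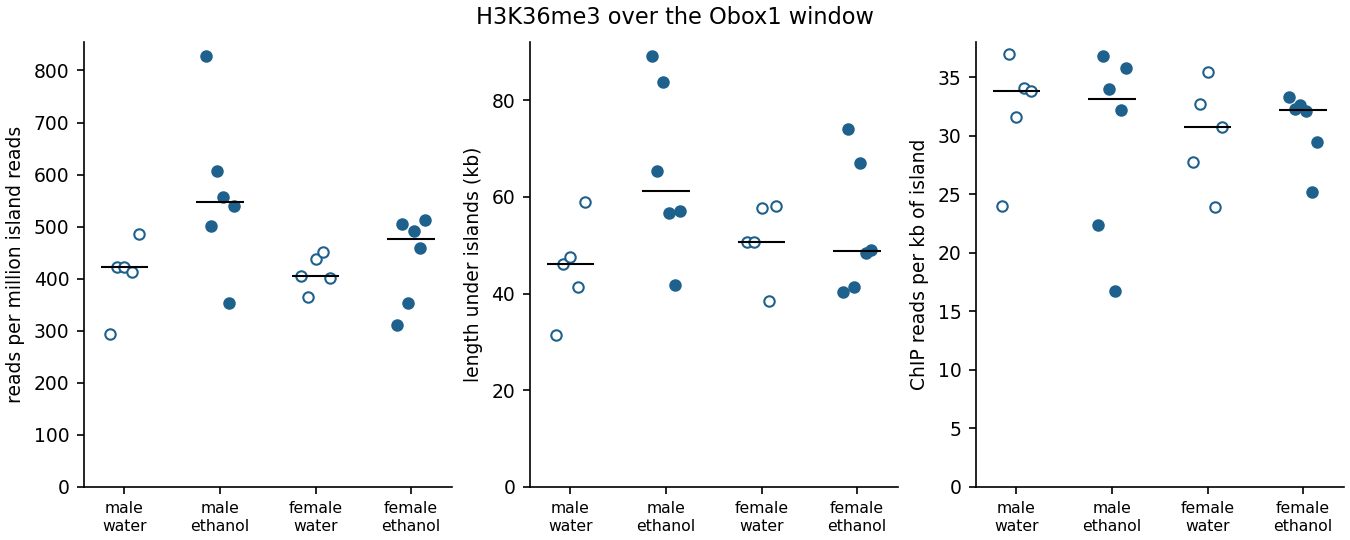
H3K36me3 over the Obox1 window by pool, as reads per M island reads (left), length under islands in kb (middle) and ChIP reads per kb of island (right), with 1 point per pool and a line at the median of each group. In males the ethanol median is higher in the left and middle panels and not in the right one, and the points overlap in all panels.

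Obox3 held 253.0, 310.0, 312.4, 333.1 and 412.5 RPM of H3K36me3 in male water pools and from 256.4 to 502.3 with a median of 423.4 in male ethanol pools. The groups overlapped, and the log2 fold change was 0.40 (SE 0.18, edgeR adjusted p = 0.984). The call was lost when any 1 of 7 libraries was left out, water replicates 1 to 4 or ethanol replicates 1 to 3, with log2 fold changes of 0.32 to 0.43. It was also lost as reads over input (0.063), centred (0.0585), on islands with an FDR of at most 0.01 (0.73) or 1e-05 (3.65), over the gene body (0.42) and with the replicate block (0.43).

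Tdpoz3 held 240.5, 240.2, 256.3, 273.7 and 206.5 H3K36me3 RPM in female water pools and from 247.2 to 341.3 with a median of 295.4 in female ethanol pools. The groups overlapped, and the log2 fold change was 0.35 (SE 0.15, edgeR adjusted p = 1.00). Here too the length moved with the reads: islands covered 47.6 to 62.2% of the window in water pools and 54.0 to 95.1% in ethanol pools, and enrichment was 1.10 to 1.37 and 1.23 to 1.34. The call was lost without water replicate 2 or 5 or ethanol replicate 2, 4, 5 or 6, with log2 fold changes of 0.27 to 0.35, and as reads over input it was 0.11 and not at the threshold. It was also lost centred (0.13), on islands with an FDR of at most 0.01 (0.91) or 1e-05 (0.92), over the gene body (0.53), with islands counted in full (0.28), without the low-count filter (0.35) and with the replicate block (0.36). With both sexes together the log2 fold change was 0.24 (SE 0.10) at Tdpoz3 and 0.34 (SE 0.14) at Obox1, both with an edgeR adjusted p of 1.00. Over input these were 0.050 and 0.036, centred 0.053 and 0.040, on islands with an FDR of at most 0.01 0.46 and 0.52, and with the replicate block 0.24 and 0.31, none of them at the threshold.

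**Figure D5:**
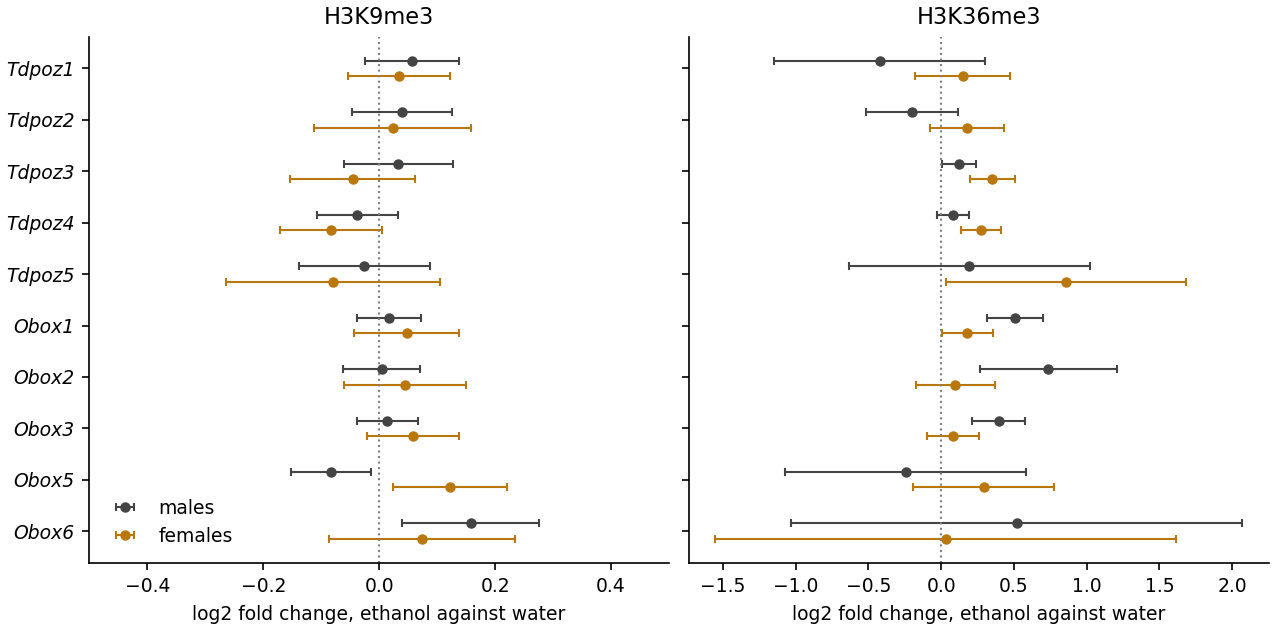
Log2 fold change of each member's window, ethanol against water, in males (grey) and females (orange), with bars for the standard error, for H3K9me3 (left) and H3K36me3 (right, on a wider axis). H3K9me3 values lie between -0.08 and 0.16, and the H3K36me3 standard errors are widest for Tdpoz5 and Obox6, where some libraries had no island.

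Single regions were tested as well, since they count each read once. For H3K9me3 in males, 2 of 71 regions in the clusters were at the unadjusted threshold, against 2.9% of 27625 regions, and in females 4 of 58, against 3.99% of 27168. For H3K36me3, 0 of 19 were in males, against 5.7% of 7472, and 0 of 22 in females, against 3.57% of 8996. DESeq2 gave 3 and 4 regions of the clusters for H3K9me3 and 0 and 1 for H3K36me3. Over all the same regions it gave 1075 and 1047 for H3K9me3 and 534 and 305 for H3K36me3. No region of the clusters passed after adjustment with either tool. Over all regions 0 passed with edgeR, and with DESeq2 8 and 2 for H3K9me3 and 3 and 1 for H3K36me3.

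In males the region of smallest p was chr3:93925401-93928200, over no annotated gene and 32.1 kb from Tdpoz5, outside the windows of the members. It held 8.46, 13.5, 6.94, 9.27 and 9.06 H3K9me3 RPM in water pools and from 11.3 to 16.1 with a median of 13.9 in ethanol pools. Water replicate 2 lay among the ethanol pools, and the log2 fold change was 0.57 (SE 0.18, edgeR adjusted p = 0.999). As reads over input it was 0.36, and centred 0.18, and neither was at the unadjusted threshold. In females 2 water and 0 ethanol pools had no island there, so it was not tested. The other male region, chr7:15844001-15849400, 4.32 kb from Obox6, was at 0.56 (SE 0.24) on the log2 scale. It was no longer at the unadjusted threshold without water replicate 3, 4 or 5 or ethanol replicate 3, 4, 5 or 6 (0.37 without water replicate 5), with island FDR of 0.01 (0.55) or with the replicate block (0.59). As reads over input it was at 0.34, and centred at 0.16, also not at the threshold.

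In females the region of smallest p was chr7:15546801-15555200, which covers the RefSeq start of Obox1 and the promoter printed above. It held 30.2, 35.8, 35.4, 37.5 and 36.6 H3K9me3 RPM in water pools and from 33.8 to 43.7 with a median of 39.1 in ethanol pools. The log2 fold change was 0.24 (SE 0.08, edgeR adjusted p = 0.999), and as reads over input it was 0.09 and not at the threshold. In males the same region held 37.9 to 47.5 RPM in water and 38.2 to 50.1 in ethanol pools, with a log2 fold change of 0.05 (SE 0.07).

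The other female regions included 2 with lower values in ethanol pools. The region chr7:15592801-15596800, within the GENCODE model of Obox3, held 15.6 to 19.1 RPM in water and at most 15.2 in ethanol pools, and the groups did not overlap. Its log2 fold change was -0.27 (SE 0.11, edgeR adjusted p = 0.999), but as reads over input it was 0.14, the opposite sign. It lost the unadjusted threshold without water replicate 3 or 5 or ethanol replicate 4, with -0.26 to -0.23, and with the replicate block (-0.28). The region chr7:15654401-15660400, 14.5 kb from Obox3, was at -0.27 (SE 0.12), and over input at 0.051. It lost the threshold without water replicate 2, 3, 4 or 5 or ethanol replicate 1, 3, 5 or 6, with -0.28 to -0.22, with island FDR of 0.01 (-0.12) and with the replicate block (-0.25). The fourth, chr3:93632001-93636800, 14.7 kb from Tdpoz2, was at 0.42 (SE 0.19). It was at 0.16 over input and 0.12 centred, not at the unadjusted threshold, and it also lost the threshold without water replicate 1 or 2 or ethanol replicate 2, 3, 4, 5 or 6, with 0.30 to 0.44.

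Of the 70 other oocyte and early-embryo genes, 0 of 44 tested H3K9me3 windows were at the unadjusted threshold in males and 4 of 46 in females, all higher in ethanol pools. Over all windows the shares were 2.3% in males and 3.06% in females, and 177 of the 260 female windows at the threshold were higher in ethanol pools. For H3K36me3, 1 of 41 was in males, higher in ethanol pools, against 2.41% of all windows, of which 165 of 302 were higher. In females it was 0 of 40, against 0.572%. Of the 5 other Tdpoz and Obox genes, 0 were for either mark in either sex.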

How the data were processed

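Members and gene lists were chosen with earlier results of these data known. Per the labels and the study's methods, the authors trimmed reads with cutadapt, aligned 150-base single-end reads to GRCm38 with Bowtie2 2.4.1, kept reads that mapped to a single location, discarded blacklisted ones, and ran SICER for each precipitated library with its pool's input (200 bp windows, with gaps of 400 bp for H3K9me3 and 600 bp for H3K36me3). They combined 8 technical precipitations of each pool before sequencing. The deposited counts per island are whole ChIP and input reads as mapped. Deposited p-values and q-values (FDR) compare ChIP with scaled input reads, and the authors' fold column is a ratio, ChIP over input reads, scaled by 1 constant per library, which was recovered from it. Islands of any q-value were listed. Reads outside islands were not used here, so depth is known only inside islands. The authors' pools are separate groups of 3 mice, and titles gave sex, treatment, mark and number. The labels name no batch.

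Island reads were apportioned by overlapped length to GENCODE vM21 gene windows, a library without an island counting as 0, or to regions covered in at least 11 of 22 libraries, at least 200 bp long and with an island in all 11 libraries of the sex. Counts were filtered with filterByExpr, scaled with TMM and tested with edgeR 4.0.16 (quasi-likelihood) in R 4.3.3, treatment alone in each sex, with sex as a covariate for both sexes, and with their interaction. Calls were made at an adjusted p of 0.05 and, like the study's DiffBind calls, at an unadjusted p of 0.05. DESeq2 1.42.0 and, for log2 of ChIP over input reads (pseudocount 1), limma 3.58.1 were alternatives, beside island FDR, filter, flank, overlap, library size and left-out replicates. Tests were tried on simulated data first. Python 3.11.15, numpy 2.4.6, pandas 2.3.3, numba 0.67.0 and matplotlib 3.10.9 did the rest. All 10 members are named with their levels. Test values are given for members at the threshold and for the one of smallest p in each mark and sex, and likeness for the 3 genes of highest r per cluster and mark. The 6 regions at the threshold were named after their values were seen. No 2 libraries of a mark agreed within sampling noise (lowest chi-square per degree of freedom 8.63 over 231 pairs of H3K9me3 libraries, and 14.7 for H3K36me3).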

Additional observations from a re-analysis of the deposited data

Results flagged for a closer look

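Among 48 sets of 5 or 6 pools looked at (cluster, mark, group and quantity), 3 had a pool far from the others, by the gap to its nearest neighbour over the range of the set. Chance gives about 1 in 20 sets, or 2.4 here. H3K36me3 enrichment over input in the Obox cluster was 1.453 in male water replicate 1, with the other 4 male water pools at 1.20 to 1.26. H3K36me3 enrichment in the Tdpoz cluster was 1.213 in female ethanol replicate 5, with the others at 1.25 to 1.27. H3K9me3 reads in the Tdpoz cluster came to 1815 RPM in male ethanol replicate 1, with the others at 1342 to 1451.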

How the results depend on the processing

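Of 745 values computed under alternatives, 585 moved little: tested fold changes kept their sign and side of the threshold, counts stayed within 1.5 times, and untested levels and differences within 1 SD. Among them, 3 differences of the cluster means in H3K36me3, near 0, changed sign. The tally is no measure of robustness, since leaving out 1 of 22 libraries cannot move a cluster's mean level by 1 SD. Such values are counted in it. Counts of members at the unadjusted threshold moved as follows, and the cause was not tested unless the setting itself gives it. For H3K9me3 windows the count was 1 in females with islands counted in full and 1 with both sexes as centred reads over input; leaving out 1 pool gave 0 to 1 in males (1, Tdpoz4, without ethanol replicate 1), 0 to 1 in females (1 without water replicate 3, Obox5, or 4, Obox1) and 0 to 1 for the sex difference (1 without female water replicate 3). For H3K9me3 regions in males it was 1 with island FDR of 0.01, 4 over input and 5 centred, and 1 to 4 without 1 pool (4 without water replicate 3 or ethanol replicate 1, and 1 without water replicate 5 or ethanol replicate 5 or 6). In females it was 2 with island FDR of 0.01, 1 over input and 0 centred, and 2 to 7 without 1 pool (7 without water replicate 4, and 2 without water replicate 2 or 5 or ethanol replicate 3, 4, 5 or 6).

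For H3K36me3 windows in males the count was 0 with island FDR of 0.01 or 1e-05, over input, centred or with the replicate block, 1 over gene bodies, and 0 to 2 without 1 pool (0 without ethanol replicate 1). In females it was 0 with either island FDR, over input, with the replicate block, without the low-count filter, over bodies or with islands in full, and 0 to 2 without 1 pool (2 without water replicate 4 or ethanol replicate 1). With both sexes it was 0 with island FDR of 0.01, over input, centred or with the replicate block, and 2 to 4 without 1 pool (4 without female water replicate 3 or female ethanol replicate 1 or 3); the sex difference gave 0 to 2 (2 without male ethanol replicate 5). For H3K36me3 regions the count was 1 in males centred and 0 to 1 without 1 pool (1 without water replicate 1 or ethanol replicate 6), and in females 1 with DESeq2, 3 centred and 0 to 1 without 1 pool (1 without water replicate 5 or ethanol replicate 1, 2 or 4).

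Replicate numbers did not pair the pools: same-numbered ethanol and water pools correlated at -0.07 to 0.02 for H3K9me3 and -0.38 to 0.04 for H3K36me3, and 0 of 10 pools of a mark and sex correlated best with their own number. The replicate block used replicates 1 to 5, without ethanol replicate 6 of either sex, so a call lost with it had fewer pools behind it. With the replicate block the counts were 0 H3K9me3 windows, and 2 male and 4 female H3K9me3 regions. The regions chr7:15844001-15849400 in males and chr7:15592801-15596800 and chr7:15654401-15660400 in females were no longer part. Mean H3K36me3 enrichment in Tdpoz was 1.36 with island FDR of 0.01, 1.48 with 1e-05, 1.36 over GENCODE bodies and 1.36 over RefSeq bodies (an alternative chosen after seeing the data, as were the members' windows alone), and in Obox 1.56 with 0.01 and 1.77 with 1e-05, as weak islands drop out. Directions reversed for Obox6 H3K9me3 in males over the body (-0.019), for chr7:15592801-15596800 over input (0.14) and centred (0.10), and for chr7:15654401-15660400 (0.051 and 0.013). H3K36me3 is the weaker measurement: its libraries held fewer reads, its islands were less often at an FDR of 0.01, and with 5 and 6 pools and the SEs given, H3K36me3 differences at the members could go undetected, large ones included, so the absence of adjusted H3K36me3 calls does not show that the mark was unchanged. H3K9me3 was the more sensitive measurement, with smaller SEs at the members, but differences could be missed there too.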
